A study of Mus musculus with 11 samples.

Results

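The 10 genes described here encode Toll-like receptors (Tlr2, Tlr3, Tlr4, Tlr5, Tlr7 and Tlr9), the accessory proteins Cd14 and Ly96 that present lipopolysaccharide to the receptor Tlr4, and the adaptors Myd88 and Ticam1. They were chosen by symbol, as probe sets that the platform annotation assigns to exactly 1 of these symbols, and each of the 10 had 1 such probe set, out of 22180 genes named in the same way. Signal was compared between S3 proximal tubules of THP -/- mice (THP KO), which lack Tamm-Horsfall protein, with 5 arrays, and of wild-type (WT) mice, with 6 arrays. Both genotypes were of strain 129/SvEv, and no treatment, age or sex is named in the labels. Batch 1 held 3 THP KO and 5 WT arrays, and batch 2 held 2 THP KO arrays and 1 WT array. The labels do not tie each array to its own mouse, so the spread behind each p-value is that between arrays and may be technical. Precision is limited by the small number of arrays.

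Toll-like receptors are membrane proteins that recognise conserved microbial molecules and some molecules released by damaged cells. Receptors at the cell surface bind bacterial products (Tlr2 lipoproteins, Tlr4 lipopolysaccharide, Tlr5 flagellin), whereas those in endosomes bind nucleic acids (Tlr3 double-stranded RNA, Tlr7 single-stranded RNA, Tlr9 unmethylated CpG DNA). The adaptor Myd88 relays the signal of every receptor listed here except Tlr3 and leads to NF-kappaB. The adaptor Ticam1, also called TRIF, serves Tlr3 and internalised Tlr4 and leads to interferon regulatory factors. Macrophages and other leukocytes carry these receptors, and kidney tubule cells have been described to express several of them. Tamm-Horsfall protein, or uromodulin, is secreted by the neighbouring thick ascending limb and has been reported to act on Tlr4 of myeloid cells.

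The adaptors Ticam1 and Myd88 were the only members whose signal exceeded the median of all probe sets on all 11 arrays, so the 250 bases before their start sites are shown for orientation. Sequences are from RefSeq on build GRCm38.p6, given 5′ to 3′ in the direction of the gene. Ticam1 lies on the minus strand (chr17:56276768-56277017) and Myd88 on the minus strand (chr9:119340019-119340268). Capitals mark matches to 3 motifs searched on both strands: GGGA and TTCC with any 2 bases between them (NF-kappaB type), GAAA and GAAA with any 2 bases between them (interferon response type), and GAGGAA, a core of the myeloid factor PU.1.
Ticam1: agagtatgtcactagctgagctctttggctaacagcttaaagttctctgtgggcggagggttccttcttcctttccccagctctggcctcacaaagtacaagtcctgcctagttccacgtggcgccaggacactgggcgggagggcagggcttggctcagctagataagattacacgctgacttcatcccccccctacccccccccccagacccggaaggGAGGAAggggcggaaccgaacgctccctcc
Myd88: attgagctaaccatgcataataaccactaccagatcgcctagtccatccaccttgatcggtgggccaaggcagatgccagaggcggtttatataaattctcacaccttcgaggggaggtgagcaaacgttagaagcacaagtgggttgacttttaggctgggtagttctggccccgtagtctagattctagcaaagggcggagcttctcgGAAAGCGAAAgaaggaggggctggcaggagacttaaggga
The Ticam1 window held 1 GAGGAA, from -30 to -25 relative to the start site, a motif found in 23.3% of 32851 promoter windows of this length. The Myd88 window held 1 match of the interferon response type, from -40 to -31, a motif found in 2.98% of windows. The motif of the NF-kappaB type, found in 1.21% of windows, was in neither. Of the other members, Tlr2, Tlr3, Tlr5 and Tlr9 had a window, with the NF-kappaB type in that of Tlr3 and GAGGAA in that of Tlr9. A match describes letters and is not a binding site.

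Umod, which encodes the missing protein, read 3.68 to 5.27 in THP KO and 5.27 to 6.74 in WT arrays (log2 signal), and knockout replicate 5 stood at the level of the lowest WT arrays. The labels do not say which stretch of Umod was removed, so this probe set may lie outside it and is a limited check of genotype. As a level for genes that the tubule is not known to use, called the silent level here, the 95th percentile of 1405 probe sets for olfactory and vomeronasal receptors was taken on each array, and it lay between 4.34 and 4.89. The silent level ran from 4.34 to 4.88 in THP KO and from 4.58 to 4.89 in WT arrays. Counts of arrays above it can therefore differ between genotypes at equal signal. All 5 markers of S3 tubules lay above it on every array. The mean of that list ran from 8.82 to 10.01 in THP KO and from 8.01 to 9.34 in WT. The mean of 5 thick ascending limb markers ran from 5.85 to 7.91 in THP KO, highest in replicate 4, and from 5.33 to 6.29 in WT. Of these markers, Cldn10 had the highest group means (8.62 in THP KO and 8.20 in WT) and so weighs most on the list mean. Of 10 macrophage markers, Csf1r and Cx3cr1 were above the silent level on every array and 6 of the list on none. The macrophage list mean was 4.25 to 4.54 in THP KO and 4.15 to 4.44 in WT. All 6 neutrophil markers, 3 of 4 B cell, 4 of 5 T cell and 4 of 5 dendritic cell markers were above it on no array, and 2 of 5 endothelial markers were above it on every array. The part of these cell types in the results below was not tested. In such bulk samples, fewer cells of a type and less RNA per cell cannot be told apart.

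In S3 tubules of both genotypes, 7 of the 10 genes exceeded the silent level on no array, and 4 of these never exceeded the array median. The array median of all probe sets lay between 3.85 and 4.01, and the median of the olfactory and vomeronasal receptor probe sets between 2.40 and 2.75. Tlr2, Tlr4, Tlr7 and Ly96 were at or below the array median on all 11 arrays, whereas Tlr9 exceeded it on 9 and Tlr3 on 6. Tlr2, Tlr3, Tlr4, Tlr7, Tlr9, Cd14 and Ly96 exceeded the silent level on no array, and Tlr5 exceeded it on 1. Ticam1 exceeded it on all 11. Myd88 exceeded it on 4 of 5 THP KO and 2 of 6 WT arrays, but the level differs between arrays. At the same Myd88 signal of 4.56, knockout replicate 1 stood above its level (4.498) and WT replicate 1 below its own (4.576). Probe sets differ in brightness for the same amount of RNA, so a level of one member is no measure of its RNA beside another's. No fold is given for members that were not above the silent level on every array.

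**Figure D1:**
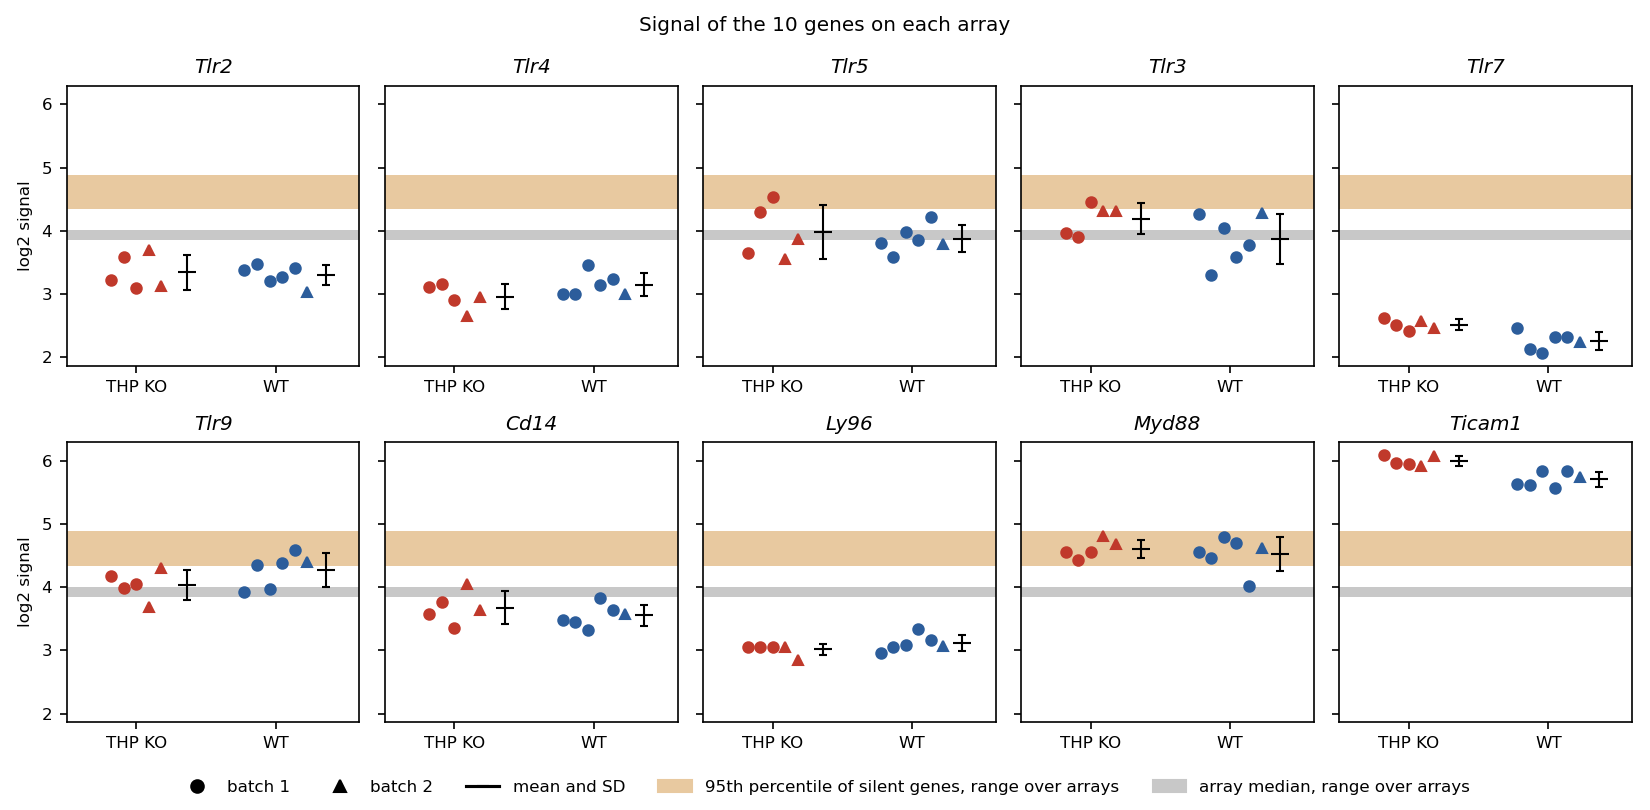
Log2 signal of each of the 10 genes on 5 THP KO and 6 WT arrays (circles batch 1, triangles batch 2), with the mean and SD beside each group. The grey band is the range of array medians (3.85 to 4.01) and the tan band that of the 95th percentile of olfactory and vomeronasal receptor probe sets (4.34 to 4.89). Only Ticam1 lies above both bands on every array, with all THP KO arrays above all WT arrays.

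No member passed the test between genotypes. limma, fitted to all 41345 probe sets with genotype and batch as terms, called 0 of the 10 genes at a Benjamini-Hochberg adjusted p under 0.05, and 0% of all probe sets. Umod itself was not called, with a log2 difference (THP KO minus WT) of -1.52 ± 0.24 (SE). Its unadjusted limma p was 6.8e-05 and its adjusted p 0.281, so a lack of calls does not show that a gene is unchanged. At an unadjusted p under 0.05 there were 2 of the 10 genes, Ticam1 and Tlr7, where 6.16% of all probe sets were. Signal was higher in THP KO for 7 members and lower for 3, with a median difference of 0.074 (log2, THP KO minus WT). Over all probe sets the median difference was 0.0021 and 50.4% were above 0. Over the 22180 genes, with 1 probe set kept for each as for the members, the median difference was 0.015. The median of the 10 genes was 0.016 without WT replicate 6 (batch 1 alone) and 0.025 without knockout replicate 4.

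Ticam1 (Entrez 106759, probe set 17346210) was the only member whose groups did not overlap. Its log2 signal was 6.09, 5.96, 5.94, 5.92 and 6.08 in THP KO replicates 1 to 5, against 5.57 (lowest), 5.685 (median) and 5.84 (highest) in the 6 WT arrays. All 5 THP KO arrays stood above all WT arrays, and the lowest of them lay 0.08 above WT replicates 3 and 5, which shared the highest WT value. The mean was 5.998 ± 0.081 (SD, n = 5) in THP KO and 5.71 ± 0.117 (SD, n = 6) in WT. The batch-adjusted difference was 0.29 ± 0.10 (SE), a 1.22-fold higher signal, with a 95% interval from 0.06 to 0.51. The unadjusted limma p was 0.017, and the limma adjusted p over all probe sets was 0.758, so the difference failed the correction. It was 0.30 within batch 1 and 0.26 within batch 2. Groups without overlap were found in 0.597% of all probe sets, in 0.37% with THP KO higher.

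For Myd88 (Entrez 17874, probe set 17532137) the difference between genotypes was smaller than the spread between arrays. Its log2 signal was 4.56, 4.43, 4.56, 4.81 and 4.68 in THP KO, against 4.02, 4.59 and 4.79 (lowest, median and highest) in WT. The groups overlapped, and the lowest array of all was WT replicate 5, the only one under 4.43. The difference was 0.04 ± 0.14 (SE), with a 95% interval from -0.28 to 0.36 and a limma adjusted p of 0.975. Without WT replicate 5 it was -0.045.

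Of the receptors at the cell surface, Tlr4, which senses lipopolysaccharide, had a slightly lower mean in THP KO, at a level where signal was not shown to exceed background. Its log2 signal was 3.12, 3.16, 2.90, 2.66 and 2.96 in THP KO, against 3.01, 3.08 and 3.46 (lowest, median and highest) in WT. Knockout replicates 3, 4 and 5 lay below every WT array and replicates 1 and 2 within the WT range. The difference was -0.14 ± 0.12 (SE), with a 95% interval from -0.41 to 0.14 and a limma adjusted p of 0.882. It had the same sign within batch 1 (-0.11) and batch 2 (-0.20).

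Ly96 and Cd14, the partners of Tlr4 in binding lipopolysaccharide, also exceeded the silent level on no array. Ly96 read 3.06, 3.06, 3.06, 3.05 and 2.85 in THP KO, against 2.96, 3.075 and 3.34 (lowest, median and highest) in WT. It had the identical value of 3.06 on 4 arrays, and knockout replicate 5 stood below the rest. Its difference was -0.08 ± 0.10 (SE; 95% interval -0.30 to 0.15; limma adjusted p 0.924). Cd14, which hands lipopolysaccharide on to Ly96, read 3.57, 3.77, 3.36, 4.05 and 3.64 in THP KO, against 3.33, 3.53 and 3.83 (lowest, median and highest) in WT. The groups overlapped, and knockout replicate 4, the array with the highest thick ascending limb markers, was the only array with Cd14 above its array median. The difference of Cd14 was 0.08 ± 0.14 (SE; 95% interval -0.22 to 0.39; limma adjusted p 0.940), with 0.02 within batch 1 and 0.27 within batch 2.

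Tlr2, which recognises bacterial lipoproteins with Tlr1 or Tlr6, had a difference near 0. Its log2 signal was 3.22, 3.59, 3.10, 3.69 and 3.13 in THP KO, against 3.04, 3.325 and 3.47 (lowest, median and highest) in WT. Knockout replicates 2 and 4 were above every WT array, and the other knockout arrays lay inside the WT range. The difference was 0.06 ± 0.15 (SE; 95% interval -0.26 to 0.39; limma adjusted p 0.959), and it changed sign between batch 1 (-0.04) and batch 2 (0.37).

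Tlr5, the receptor for flagellin, varied more among the THP KO arrays than among the WT arrays. It read 3.65, 4.30, 4.54, 3.56 and 3.87 in THP KO (SD 0.422, n = 5), against 3.58, 3.835 and 4.22 (lowest, median and highest) in WT (SD 0.214, n = 6). Knockout replicates 2 and 3 were above every WT array and replicate 4 was below every WT array. The difference in spread was not tested. The difference in level was 0.18 ± 0.19 (SE; 95% interval -0.23 to 0.59; limma adjusted p 0.897), with 0.27 within batch 1 and -0.09 within batch 2. Without knockout replicate 3 it was 0.03, and without knockout replicate 1 it was 0.33.

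Among the receptors of endosomes, Tlr3 had the widest interval of the 10 genes. It read 3.96, 3.91, 4.45, 4.32 and 4.32 in THP KO, against 3.30, 3.91 and 4.29 (lowest, median and highest) in WT. Knockout replicates 3, 4 and 5 were above every WT array, while replicates 1 and 2 lay within the WT range. The difference was 0.24 ± 0.19 (SE; 95% interval -0.18 to 0.66; limma adjusted p 0.867), with 0.31 within batch 1 and 0.03 within batch 2. Without knockout replicate 3 it was 0.11.

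Tlr7, which binds single-stranded RNA, had the other small unadjusted p, but on signals at the bottom of the arrays. It read 2.62, 2.51, 2.41, 2.58 and 2.46 in THP KO, against 2.07, 2.28 and 2.47 (lowest, median and highest) in WT. Knockout replicates 1, 2 and 4 were above every WT array, and WT replicate 1 stood above knockout replicates 3 and 5. The lower quartile of the arrays lay between 2.85 and 3.03, above every Tlr7 value. The difference was 0.26 ± 0.11 (SE; 95% interval 0.02 to 0.50), with an unadjusted limma p of 0.0369 and an adjusted p of 0.786. It was 0.25 within batch 1 and 0.28 within batch 2.

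Tlr9, the receptor for CpG DNA, had a lower mean in THP KO, at signals above the silent level on no array. It read 4.17, 3.98, 4.05, 3.68 and 4.31 in THP KO, against 3.93, 4.365 and 4.59 (lowest, median and highest) in WT. Knockout replicate 4 was below every WT array and the other 4 lay within the WT range. The difference was -0.24 ± 0.17 (SE; 95% interval -0.60 to 0.13; limma adjusted p 0.854), with -0.18 within batch 1 and -0.41 within batch 2. With the replicate number as a block it was -0.017.

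**Figure D2:**
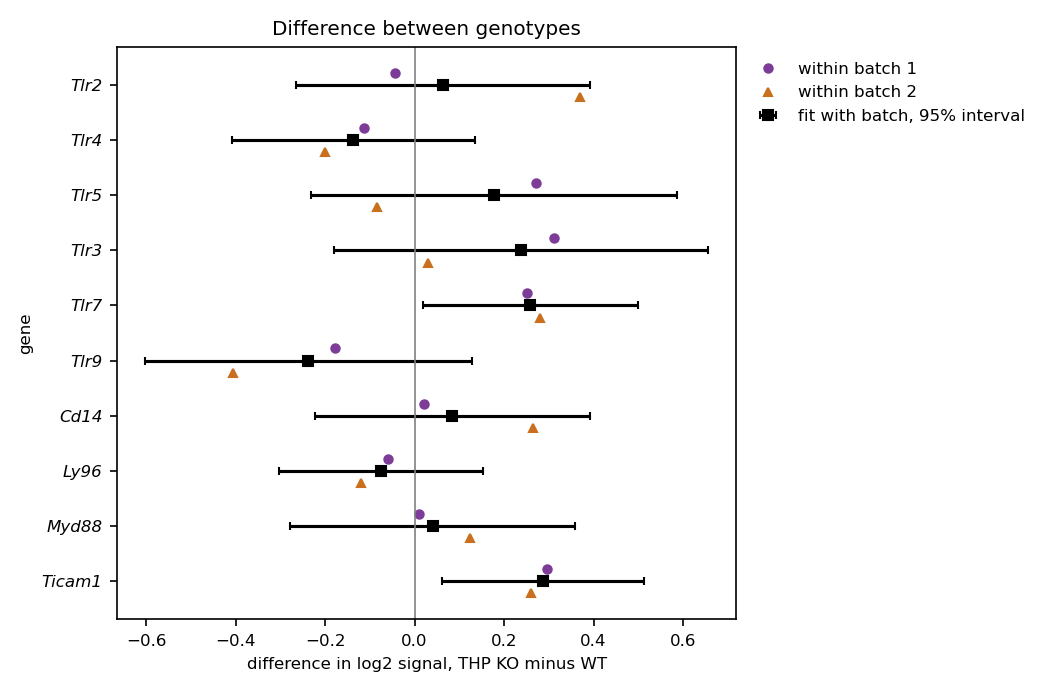
Difference in log2 signal (THP KO minus WT) for each gene, with squares and bars for the fit with batch and its 95% interval, circles for batch 1 (3 THP KO, 5 WT arrays) and triangles for batch 2 (2 THP KO arrays, 1 WT array). The intervals of Ticam1 (0.06 to 0.51) and Tlr7 (0.02 to 0.50) lie above 0 before correction for the number of probe sets, and Tlr2 and Tlr5 change sign between batches.

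The same sign in both batches was seen for 8 of the 10 genes, all but Tlr2 and Tlr5. Batch 2 has a single WT array, so its differences carry no replicate check on the WT side. The 95% intervals of the 10 differences reached down to -0.60 (Tlr9) and up to 0.66 (Tlr3), and the narrowest was that of Ticam1.

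**Figure D3:**
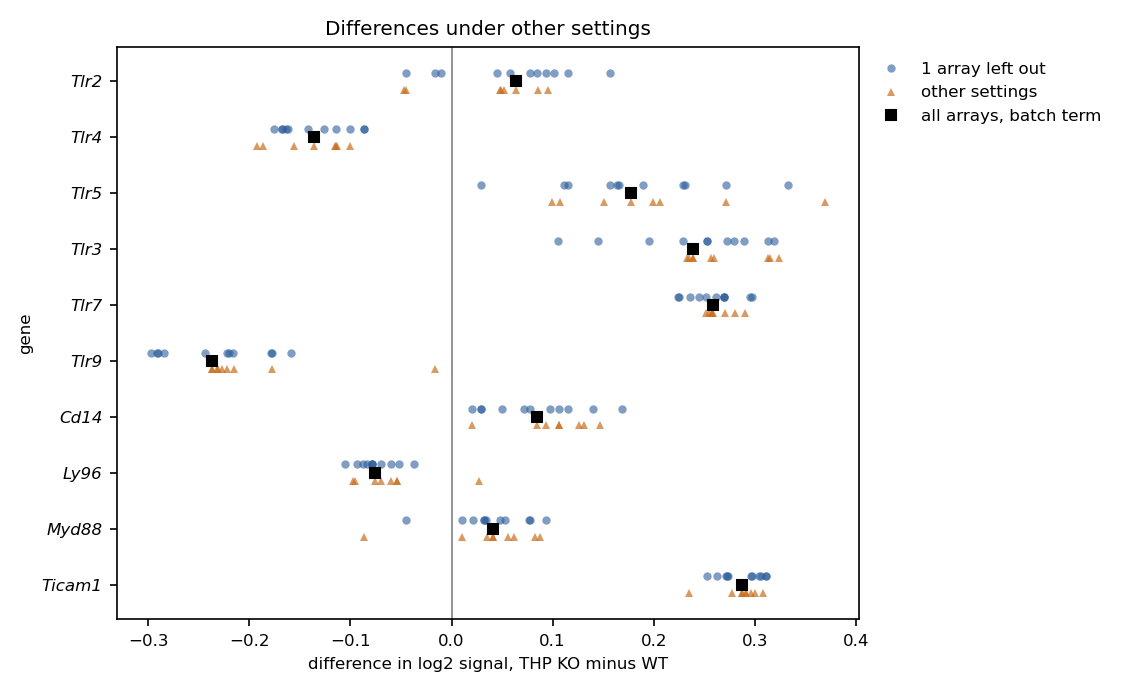
Difference in log2 signal (THP KO minus WT) of each gene with all arrays and the batch term (squares), with 1 array left out in turn (circles) and under the other settings (triangles). Ticam1 stays between 0.24 and 0.31 and Tlr7 between 0.22 and 0.30, while Tlr2, Ly96 and Myd88 cross 0.

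The rest of the pathway, taken from lists by role, likewise gave no call. Of 84 listed genes 76 had a probe set with 1 symbol. limma called 0 of the 76 at an adjusted p under 0.05. At an unadjusted p under 0.05, 5 were higher and 1 was lower in THP KO, beside 3.4% and 2.76% of all probe sets. In all, 52 had a higher and 24 a lower fitted signal in THP KO, with a median difference of 0.096, beside 0.015 over the 22180 genes.

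The other 6 Toll-like receptors were dim too. Tlr1, Tlr6, Tlr8, Tlr11 and Tlr13 exceeded the silent level on no array, and Tlr12 on 1. Their median difference was 0.10, with 5 higher and 1 lower. Tlr8, an endosomal receptor related to Tlr7, averaged 2.42 ± 0.307 (SD, n = 5) in THP KO and 2.19 ± 0.173 (SD, n = 6) in WT, with a limma adjusted p of 0.841. Tlr12, which binds profilin of protozoa, differed by 0.13 ± 0.13 (SE) and Tlr6 by 0.10 ± 0.18. Tlr13, which binds bacterial ribosomal RNA, had a fitted difference of 0.10 ± 0.17, but its means were 2.58 in THP KO and 2.59 in WT, and the batches differed in sign (0.29 in batch 1 and -0.45 in batch 2).

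Of 7 genes that handle ligands or move receptors, 5 had higher and 2 lower fitted signal, with a median difference of 0.13. Hsp90b1, the endoplasmic reticulum chaperone on which most Toll-like receptors depend for folding, was at 9.31 ± 0.308 (SD, n = 5) in THP KO and 9.02 ± 0.183 (SD, n = 6) in WT, a difference of 0.30 ± 0.16 (SE). The scavenger receptor Cd36, a partner of Tlr2 that also takes up fatty acids, differed by 0.38 ± 0.25. Unc93b1, which carries the nucleic acid receptors to endosomes, differed by 0.17 ± 0.22 and the chaperone Cnpy3 by 0.13 ± 0.18. Adjusted p over all probe sets (limma) was 0.826 to 0.927 for these 4 genes.

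Downstream adaptors, kinases and ubiquitin enzymes had 12 genes with higher and 4 with lower fitted signal among 16 measured, with a median difference of 0.13. Tab3, a subunit of the TAK1 kinase complex, was at 4.62 ± 0.249 (SD, n = 5) in THP KO and 4.21 ± 0.205 (SD, n = 6) in WT, with a difference of 0.34 ± 0.13 (SE). Ikbkb, the kinase that marks the NF-kappaB inhibitor for breakdown, was at 6.33 ± 0.081 in THP KO and 6.08 ± 0.162 in WT, with a difference of 0.28 ± 0.11. Both had a limma adjusted p of 0.769. Ikbkb had 6.28 as its lowest THP KO value and as its highest WT value, so the groups touched. Tbk1, the kinase that acts after Ticam1 on interferon regulatory factors, differed by 0.17 ± 0.10 (SE), and the ubiquitin ligase Traf6, which acts after Myd88, by 0.23 ± 0.14.

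Of 6 transcription factors measured, 4 had higher and 2 lower fitted signal, with a median difference of 0.063. Irf7, an interferon regulatory factor that is itself induced by interferon, differed by 0.17 ± 0.10 (SE), and Irf3, the factor activated through Ticam1, by 0.20 ± 0.18. The NF-kappaB subunits Relb and Rela differed by -0.10 ± 0.12 and 0.09 ± 0.20. The smallest limma adjusted p of this list was 0.830.

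Of 14 inhibitors of the pathway measured, 10 had higher and 4 lower fitted signal, with a median difference of 0.092. Nfkbie, an NF-kappaB inhibitor protein, was at -0.29 ± 0.14 (SE), at signals under the array median on every array. Tnip1, which binds the inhibitor Tnfaip3, was at -0.24 ± 0.13, Trafd1 at 0.32 ± 0.16, and Sigirr, a receptor that dampens Toll-like receptor signalling, at 0.20 ± 0.11. Their limma adjusted p ran from 0.823 to 0.827.

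Genes that Toll-like receptor signalling is known to induce had a median difference of 0.023, with 10 higher and 9 lower of 19 measured. Ccl2, the monocyte chemokine, had the lowest p of the 76 genes and was lower in THP KO. It averaged 3.73 ± 0.306 (SD, n = 5) in THP KO and 4.19 ± 0.229 (SD, n = 6) in WT, with a difference of -0.52 ± 0.16 (SE) and a limma adjusted p of 0.674. Its values ran from 3.24 to 4.05 in THP KO and from 3.82 to 4.50 in WT, and none exceeded the silent level. Icam1, a leukocyte adhesion protein above the silent level on every array, differed by 0.25 ± 0.10 (limma adjusted p 0.774), with 5.07 to 5.68 in THP KO and 5.01 to 5.17 in WT. The early response gene Ier3 differed by 0.26 ± 0.13 and the cytokine Il1b by -0.32 ± 0.20. Il1b was under the array median on every array. It read 2.68 and 2.83 in knockout replicates 1 and 5, against 3.41 to 3.77 in the other THP KO arrays.

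Among 8 genes for molecules described as endogenous ligands, 6 had higher and 2 lower fitted signal, with a median difference of 0.16. The chaperones Hspa1a and Hspd1 were higher in THP KO at an unadjusted limma p under 0.05, where 3.4% of all probe sets were. Their differences were 0.75 ± 0.23 (SE) and 0.70 ± 0.30, with limma adjusted p of 0.692 and 0.786. Hspa1a was already known to be higher in these arrays when the list was made. It exceeded the silent level on 3 of 5 THP KO and 0 of 6 WT arrays. Knockout replicates 1 and 2, both at 3.91, lay within its WT range of 3.38 to 3.94. The matrix proteins Fn1 and Vcan were at 0.31 ± 0.17 and 0.23 ± 0.11, with Vcan under the array median on every array. Hmgb1, a nuclear protein released by damaged cells, averaged 8.94 in THP KO and 8.89 in WT, with a fitted difference of -0.0011 ± 0.13 (SE).

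**Figure D4:**
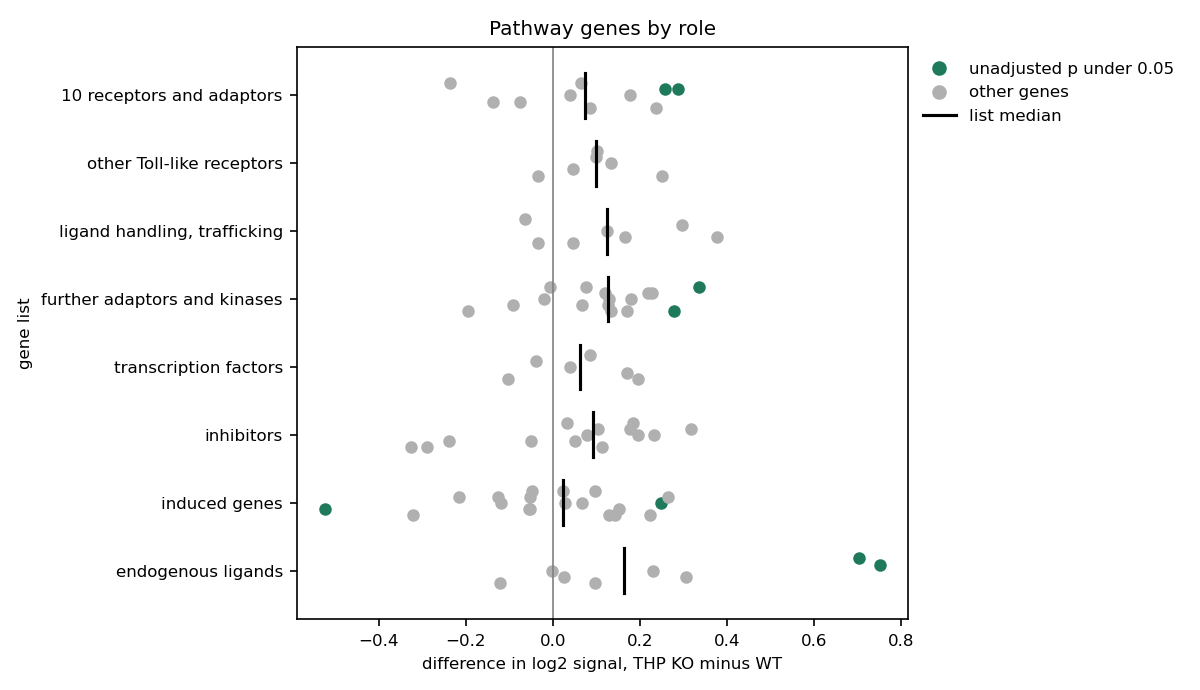
Difference in log2 signal (THP KO minus WT) of each gene, in rows by role, with green points for an unadjusted limma p under 0.05 and a black line at each list's median. List medians lie between 0.023 (induced genes) and 0.16 (endogenous ligands), and no gene passed after adjustment over all probe sets.

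Markers of tubule segments and other cell types had differences in both directions, and none passed the adjusted threshold. An unadjusted limma p under 0.05, given below for single markers, was found in 6.16% of all probe sets. All 5 S3 markers had higher fitted signal in THP KO (median 0.45), and the anion transporter Slc22a7 (1.11 ± 0.34, SE) and the lipid flippase Atp11a (0.45 ± 0.15) had an unadjusted limma p under 0.05, with adjusted p of 0.700 and 0.758. All 5 markers of the earlier S1 and S2 segments had lower fitted signal (median -0.26). Of these, the lactate carrier Slc5a12 was at -0.63 ± 0.19 (unadjusted limma p 0.0065, adjusted p 0.674). All 5 thick ascending limb markers (median 0.41) and all 5 endothelial markers (median 0.10) had higher fitted signal, none with an unadjusted p under 0.05. Of 5 T cell markers 2 were higher and 3 lower (median -0.34), with the co-receptors Cd4 at -0.39 ± 0.14 and Cd8a at -0.34 ± 0.14. Of 5 dendritic cell markers 2 were higher and 3 lower (median -0.11), with the transcription factor Zbtb46 at -0.46 ± 0.16 and the receptor Flt3 at 0.35 ± 0.14. These 4 genes had an unadjusted limma p under 0.05 and adjusted p from 0.758 to 0.774. All 4 B cell markers had lower fitted signal (median -0.094), and neutrophil markers had 3 higher and 3 lower (median 0.037). Of 10 macrophage markers 6 were higher and 4 lower, with a median of 0.023. The macrophage gene Csf1r, a receptor for a growth factor of macrophages, was at 6.62 to 7.11 in THP KO and 5.72 to 6.62 in WT. Its difference was 0.58 ± 0.19, with an unadjusted limma p of 0.0104 and an adjusted p of 0.735. The other 9 macrophage markers differed by -0.10 to 0.20, the highest being Cd68, a lysosomal protein of macrophages (limma adjusted p 0.826). Cd68 exceeded the silent level, which differs between arrays, on 4 of 5 THP KO and 0 of 6 WT arrays. Its values overlapped, from 4.56 to 4.79 in THP KO and from 4.24 to 4.74 in WT. WT replicate 5, at 4.74, stood below its array's level of 4.888, and knockout replicate 4, at 4.56, above its level of 4.34. The part of these markers in the values of Ticam1 and Tlr7 was not tested.

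For 4 members, Ticam1, Myd88, Tlr9 and Tlr3, whose probe sets had the highest mean signal (which says nothing of their RNA amounts), the genes with the most similar profile were found by Pearson correlation of log2 signal over the 11 arrays, among 22179 other genes. These are the extremes of many correlations over few arrays that share genotype and batch, and they are given as description. Tlr9 and Tlr3 exceeded the silent level on no array. Ticam1 was most like Gm15348 (r = 0.940), Grb10 (0.934) and Ankrd45 (0.932). Myd88 was most like Polr3a (0.937), AU040320 (0.927) and Abtb2 (0.914). Tlr9 was most like Pde10a (0.904), Scgb2b23-ps (0.891) and Stfa2l1 (0.889), and Tlr3 was most like Timm21 (0.947), Tbc1d19 (0.946) and Atf6 (0.925). None of these 12 genes is in the pathway lists.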

How the data were processed

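S3 tubule RNA was prepared with PicoPure and WT Pico kits, per the labels. The authors deposited log2 values, and the submitters' processing notes name Partek 6.6 and RMA, which corrects background, equalises array distributions and summarises probe sets. Equalising can shrink a shift shared by most genes. The annotation's genome build and any batch correction are not given in the sources used here.

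Probe sets with 1 symbol were named from the platform annotation. limma 3.58.1 (R 4.3.3), checked on simulated data, was fitted to 41345 unfiltered probe sets with genotype and batch as terms, with two-sided p adjusted over all of them by Benjamini-Hochberg (threshold 0.05). The members and lists were chosen with earlier results of these data known. Named are the members, Umod, up to 4 genes of smallest p per pathway list, and the 3 genes most correlated with each of the 4 members of highest mean. Markers, Tlr1, Tlr11 and Hmgb1 were named after their values were seen. Plots used matplotlib 3.10.9 in Python 3.11.15.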

Additional observations from a re-analysis of the deposited data

Results flagged for a closer look

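In 78 groups (39 genes, 2 genotypes), 7 had an array far from the rest of its group by Dixon's ratio. Chance gives about 1 in 20 for values without ties. The flagged groups of Ly96, Nfkbie and Icam1 held tied values, so the count cannot be set against that rate. Among the 10 receptors and adaptors the array flagged was knockout replicate 5 for Ly96. It read 2.85 on the log2 scale against 3.05 to 3.06 in the other THP KO arrays, all below the array median. Tlr12 read 4.71 in knockout replicate 3, against 4.19 to 4.30 in the other THP KO arrays. Traf6 read 4.99 in knockout replicate 1, against 4.54 to 4.67. Among WT arrays, Irf3 read 6.19 in replicate 2 (others 5.18 to 5.53), Relb 4.40 in replicate 1 (4.73 to 4.88), Nfkbie 3.81 in replicate 5 (3.33 to 3.34) and Icam1 5.01 in replicate 6 (5.16 to 5.17). WT replicate 6 is the only WT array of batch 2. In THP KO, Icam1 was also lowest in the batch 2 arrays (5.17 and 5.07).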

How the results depend on the processing

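None of the 10 genes passed the threshold without any 1 array or in any setting run for them. The setting with 1 probe set a gene was run for the count of all probe sets alone. The lowest adjusted p was 0.595, for Ticam1. The count of all probe sets past the threshold was 3 in batch 1 alone and 1 with 1 probe set a gene (22180 tested), and it was 0 to 11 with 1 array left out, highest without knockout replicate 5. The median member difference stayed between 0.016 and 0.11. Tlr2 turned to -0.045 in batch 1 alone and to -0.047 with the replicate block, and ran from -0.045 to 0.16 with 1 array left out. With the replicate block Ly96 turned to 0.027 and Myd88 to -0.087, and Myd88 ran from -0.045 to 0.094 with 1 array left out. The cause was not tested. Tlr3, Tlr4, Tlr5, Tlr7, Tlr9, Cd14 and Ticam1 kept their sign in every setting run, although Tlr5 was 0.030 without knockout replicate 3 and Tlr9 -0.017 with the replicate block. No pairing by replicate number was seen. Same-numbered arrays correlated at -0.18 to 0.01 in their deviations from group means, and 0 of 5 knockout arrays correlated best with its own number. These deviations were not adjusted for batch, and replicates 4 and 5 were in batch 2 for THP KO but batch 1 for WT. The block gave no call, but the main fit had none to remove. The filter on dim probe sets kept 4 of the 10 genes, so no median is given for it, and averaging the probe sets of a gene was not run, because each had 1. A signal above the silent level on no array limits what 7 of the 10 members can show.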
